A study of Mus musculus with 8 samples.

Results

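Trimethylation of histone H3 at lysine 4 (H3K4me3) was examined at 9 genes of T cells, namely Tcf7, Lef1, Bcl11b, Cd3e, Lck, Zap70, Themis, Cd28 and Il7r, in tumor cells that had been sorted as CD45-CD31-EpCAM+, a gate meant to leave out leukocytes. All listed peaks assigned to these genes were taken, which gave 42 peaks of the 35486 in the deposited table, and 9 of its 20871 genes. The genes were chosen by their measured levels and changes in this same table, so their values between the groups are a description: no p-value is given for them, and where one is said to be past the threshold of the fit over the whole table, this is no independent evidence.

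The libraries came from lung tumors of 2 genotypes on the C57BL/6 background, with 2 libraries each. KL is the study's name for the tumor model that both groups share, whose alleles include Lkb1fl/fl, which Cre deletes. KLG4m/m mice were KL mice that also carried Gpx4m/m, in which Cre removes a STOP cassette that holds back DreERT2, so that tamoxifen then deletes exons 5 to 7 of Gpx4, the enzyme that reduces phospholipid hydroperoxides. Mice of both genotypes, 8 to 10 weeks old, received Ad-Cre intranasally and tamoxifen 5 weeks later for 2 weeks, followed by 3 weeks of rest. The adenovirus carries Cre into any lung cell it infects, and no cell type promoter is named for it. The legend for this assay gives 2 mice per group, the methods speak of 3 mice in total, and the labels name no mice for the 4 H3K4me3 libraries. The p-values below measure the spread between these libraries, which would be technical for any that shared a mouse. The methods section on sorting writes the tumor gate with CD45.2+, while the section on the assay writes CD45-.

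H3K4me3 marks nucleosomes at the start sites of genes that are active or ready for transcription, and is densest at promoters rich in CG dinucleotides. T cells are built by transcription factors such as TCF1, LEF1 and BCL11B, and sense antigen through the T cell receptor with its CD3 chains, whose signal passes through the kinases LCK and ZAP70. In lung tumors these genes are known from infiltrating lymphocytes, and epithelial cells are not known to use most of them.

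The libraries held 3244495 to 3463731 reads in listed peaks. Their scaling factors lay between 0.995 and 1.00, and the chi-square per degree of freedom between libraries was 1.13 within KL, 1.23 within KLG4m/m and 2.37 to 2.80 between groups. Over the table, 3.1% of peaks were higher and 5.52% lower in KLG4m/m tumor cells at an adjusted p under 0.05 (edgeR quasi-likelihood test, Benjamini-Hochberg), and 5.38% of genes were higher and 9.63% lower by reads summed over each gene's peaks. These calls depended on both KLG4m/m libraries: without replicate 3 or without replicate 4, edgeR called 0 genes, with 1643 higher and 2543 lower, or 1572 higher and 2255 lower, at an unadjusted p under 0.05. Gpx4 had 1 peak, at its start site and outside the deleted exons, so it does not check the deletion. It held 69.8 and 67.9 CPM (read counts per 1000000 reads in listed peaks) in the KL libraries and 88.3 and 92.8 CPM in the KLG4m/m libraries.

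The promoter sequences of 4 of the genes are shown as examples that run from CG-rich (Lef1) to CG-poor (Themis). The full windows they come from held 18 CG dinucleotides for Lef1, 8 for Zap70, 8 for Cd3e and 1 for Themis. The levels at the start sites are set against each gene's richest window, which is a different one for Lef1, Zap70 and Themis. The sequences are from RefSeq, mouse build GRCm38.p6, and end at the base before the annotated gene, with each CG dinucleotide in capitals. The build of the peak positions is not given in the sources used here and is not GRCm38, so the windows were matched to the genes by symbol and not to the peaks by position. The stretches shown are chr3:131110047-131110296 (+ strand) for Lef1, chr1:36761548-36761797 (+ strand) for Zap70, chr9:45009664-45009861 (- strand) for Cd3e and chr10:28668110-28668359 (+ strand) for Themis.
Lef1: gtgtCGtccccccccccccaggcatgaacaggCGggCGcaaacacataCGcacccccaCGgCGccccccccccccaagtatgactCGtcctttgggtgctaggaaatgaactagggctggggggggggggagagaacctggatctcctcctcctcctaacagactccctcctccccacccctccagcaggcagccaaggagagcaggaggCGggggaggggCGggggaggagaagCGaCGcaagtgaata
Zap70: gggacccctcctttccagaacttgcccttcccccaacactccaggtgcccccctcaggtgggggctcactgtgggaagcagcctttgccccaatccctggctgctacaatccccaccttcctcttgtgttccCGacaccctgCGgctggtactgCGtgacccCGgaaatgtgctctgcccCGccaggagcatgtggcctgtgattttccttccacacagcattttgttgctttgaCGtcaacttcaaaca
Cd3e: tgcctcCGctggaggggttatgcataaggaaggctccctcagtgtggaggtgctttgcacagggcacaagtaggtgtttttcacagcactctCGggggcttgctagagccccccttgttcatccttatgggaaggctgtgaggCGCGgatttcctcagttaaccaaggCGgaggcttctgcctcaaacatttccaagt
Themis: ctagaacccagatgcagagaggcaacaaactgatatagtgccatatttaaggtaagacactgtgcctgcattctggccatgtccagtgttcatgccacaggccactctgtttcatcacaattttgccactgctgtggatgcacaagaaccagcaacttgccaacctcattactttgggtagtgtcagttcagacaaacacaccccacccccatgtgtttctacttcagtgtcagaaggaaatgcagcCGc

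Of the 9 genes, 8 had an entry in the promoter table, with 16 windows of 250 bases before to 50 bases after a start. The Tcf7 window with most CG dinucleotides held 45, above 98.2% of all 32851 windows by rank, and that of Lef1 held 21. The richest windows of Bcl11b and Zap70 held 9 each, that of Cd3e 8 and that of Lck 7, beside a median of 7 over all windows. The windows of Themis held at most 2 and that of Il7r held 1. The letters AGGAAG, the core of many ETS sites, were found on either strand in 8 of the 16 windows, against 35.4% of all windows. The letters TGTGGT, a RUNX core, were in 3 of the 16 against 16.8%, and CTTTGA, read by TCF and LEF factors, in 3 of the 16 against 16.003%. Windows of a gene can overlap, as some of Lef1 and Themis do, so 1 site can be counted in more than 1 window.

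All 9 genes had peaks in the table's common list, at low to moderate levels. The 42 peaks had 7 to 128 reads per library, with a median of 40, and mean levels of 3.37 to 36.8 CPM with a median of 11.9 CPM, beside a median of 13.4 CPM over all peaks. Of them, 16 lay within 1 kb of a start site, and all 16 were below the median of such peaks in the table (41.2 CPM). Their median was 16.6 CPM, and their median rank was the 26.7th percentile among peaks within 1 kb. The 26 peaks farther away had a median of 10.2 CPM, beside 7.21 CPM over all peaks farther away. The genes had 1 to 11 listed peaks each with a median of 4, while the median gene of the table had 1, and Bcl11b with 11 ranked at the 99.8th percentile.

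The levels at the start sites were set beside those of other genes with similar CG content. Left out were Cd28, which had no promoter entry, and Il7r, which had no peak within 1 kb of a start. The richest window and the strongest peak of a gene can belong to different start sites. Whether CG content accounts for the levels was not tested. Among genes whose richest window held 5 to 9 CG dinucleotides, the strongest peak within 1 kb had a median of 19.6 CPM over 1434 genes, with quartiles of 8.50 and 46.1 CPM. Bcl11b at 20.6 CPM, Cd3e at 19.6 CPM, Lck at 19.5 CPM and Zap70 at 25.1 CPM lay close to that median. Themis, at 15.9 CPM, was set against a median of 12.2 CPM over 1048 genes with 0 to 4. Tcf7 stood lower than its class, with 20.8 CPM against quartiles of 35.4 and 78.4 CPM over 5918 genes with 20 or more. Lef1, in the same class, held 36.8 CPM, just above the lower quartile.

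**Figure D1:**
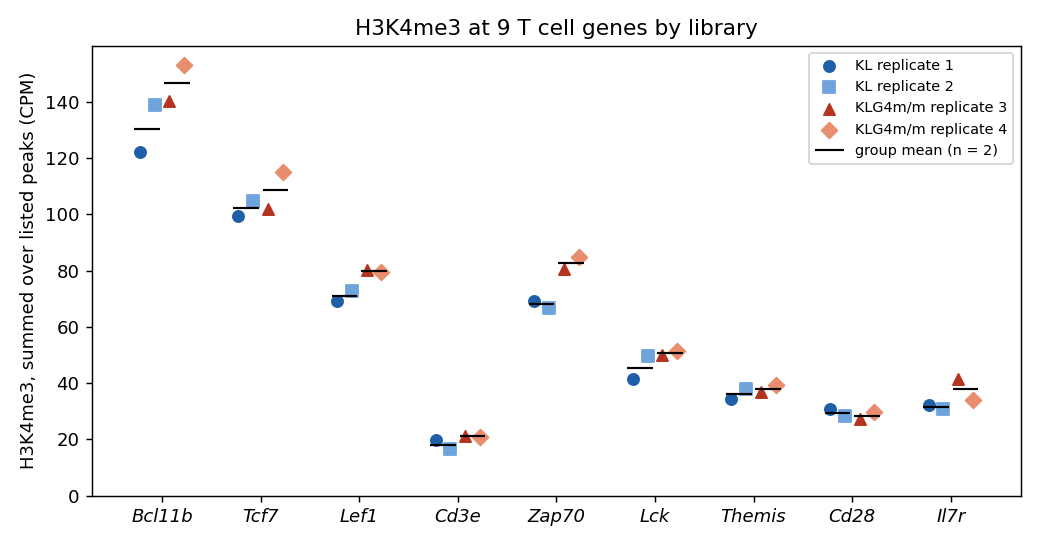
H3K4me3 summed over the listed peaks of each T cell gene (y axis, CPM), with 1 point per library and a bar at the mean of the 2 libraries of a group. Bcl11b had the highest sums, 122 to 153 CPM, and Cd3e the lowest, 16.7 to 21.2 CPM.

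By sums over all peaks of a gene, 8 of the 9 genes were above KL in KLG4m/m tumor cells, by small amounts. The sum over the 9 genes was 518 and 546 CPM in the KL libraries and 580 and 608 CPM in the KLG4m/m libraries, so the groups did not overlap. The group means were 532 ± 19.6 and 594 ± 19.7 CPM (SD, n = 2). The log2 fold changes of the 9 genes ran from -0.05 at Cd28 to 0.28 at Zap70, with a median of 0.17, beside a median of 0.00 over all genes. KLG4m/m libraries lay above both KL libraries at 6 of the 9 genes, beside 27.9% of all genes, and 1 of the 9, Zap70, was past the threshold, beside 5.38% of all genes. In such bulk samples a larger number of cells of a type and more of the mark per cell cannot be told apart.

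Of the transcription factors, Tcf7 encodes TCF1, which sets up T cell identity and keeps naive and memory T cells. Its 6 peaks moved in different directions. The peak at the start site of the long transcripts (chr11:52173807-52174207, positions as in the table) held 59 and 99 reads in KL, against 32 and 40 reads in KLG4m/m. In CPM these were 16.97 and 28.5 against 9.28 and 12.4, so the groups did not overlap, but the KL libraries differed from each other by more than the nearest libraries of the groups did. Its log2 fold change was -1.07 with a standard error of 0.23, past the threshold, as were 8.43% of all peaks within 1 kb of a start site in that direction. Without KL replicate 2 the log2 fold change was -0.65 and the peak was not past the threshold, nor was it without either KLG4m/m library (-0.88 without replicate 3 and -1.29 without replicate 4).

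A second Tcf7 peak lay 0.612 kb from the start of another transcript. Counted from it along transcription, the peak of the long transcripts lay at -1.665 kb. The second peak held 19.3 and 21.9 CPM in KL and 17.7 and 24.2 CPM in KLG4m/m, with overlapping groups. The strongest Tcf7 peak, 5.9 kb farther along the gene near an internal start, held 84 and 71 reads in KL, against 98 and 115 reads in KLG4m/m. Its log2 fold change was 0.52 with a standard error of 0.16, past the threshold with all libraries, while without KL replicate 2 it was 0.40, without KLG4m/m replicate 4 it was 0.35, and without KLG4m/m replicate 3 it was 0.67, none of them past it. Both intron peaks and an intergenic peak were also above 0, at 0.36, 0.20 and 0.43. The opposite movements left the sum of the gene at 99.5 and 105 CPM in KL and 102 and 115 CPM in KLG4m/m. These sums overlapped between the groups, with a log2 fold change of 0.09 and a standard error of 0.09. The peak at the start site of the long transcripts alone had -1.07, and the second peak, 0.612 kb from the start of another transcript, had 0.02.

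**Figure D2:**
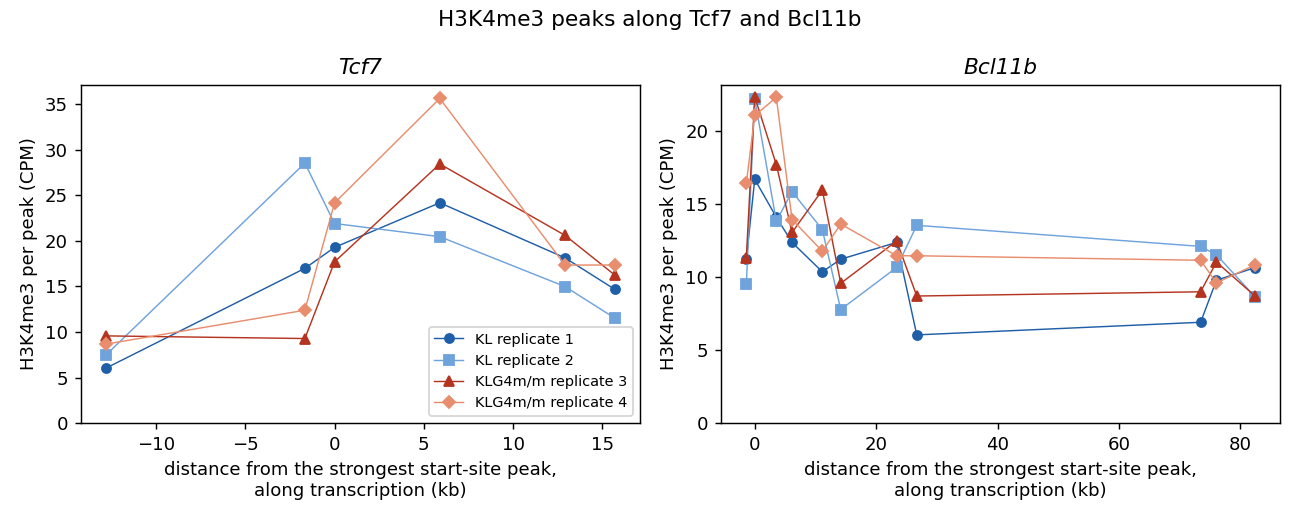
H3K4me3 of each listed peak (y axis, CPM) of Tcf7 and Bcl11b against its distance in kb from the gene's strongest peak within 1 kb of a start site, counted along transcription, with 1 line per library. At Tcf7 the KLG4m/m libraries lay below KL at the peak just upstream, at 9.28 and 12.4 CPM, and above KL 5.9 kb downstream, while at Bcl11b the lines crossed.

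Lef1 encodes the partner of TCF1 and is also used in epithelia that respond to Wnt. Its start-site peak was the strongest of the 42 and nearly equal in all libraries, with 125 and 128 reads in KL and 126 and 122 reads in KLG4m/m. That is 36.4 ± 0.643 against 37.2 ± 0.872 CPM (SD, n = 2). Away from it, a peak in an intron 3.02 kb from a start held 6.62 and 6.34 CPM in KL and 10.2 and 10.2 CPM in KLG4m/m. Another intron peak lay 52.0 kb from an internal start and 96.7 kb along the gene from the start-site peak. It held 7.77 and 9.51 CPM in KL and 14.8 and 13.6 CPM in KLG4m/m. Its log2 fold change was 0.72 with a standard error of 0.23. This was the highest value of the 42 peaks, though not the largest in size, and was not past the threshold. At both intron peaks KLG4m/m lay above KL without overlap, as it did at 27.5% of all peaks.

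Bcl11b encodes a zinc finger factor that commits progenitors to the T lineage. Its 11 peaks stretched over the gene at even levels of 9.71 to 20.6 CPM. The strongest, at the start site, held 16.7 and 22.2 CPM in KL and 22.3 and 21.1 CPM in KLG4m/m. Of the 11 peaks, 2 near the start were higher in KLG4m/m without overlap between the groups, beside 27.5% of all peaks. One of these 2 peaks held 14.1 and 13.8 CPM in KL and 17.7 and 22.3 CPM in KLG4m/m. The sum of the gene was 122 and 139 CPM in KL and 140 and 153 CPM in KLG4m/m, so KL replicate 2 nearly met KLG4m/m replicate 3.

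Cd3e, a signalling chain of the T cell receptor complex, had 1 peak, 0.16 kb from its start. It held 68 and 58 reads in KL and 73 and 68 reads in KLG4m/m, with a log2 fold change of 0.22 and a standard error of 0.18. By raw reads the groups touched at 68, and by CPM they lay at 19.6 and 16.7 against 21.2 and 21.1.

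The kinase genes had peaks at more than 1 start site each. Zap70, the kinase that binds phosphorylated CD3 chains, had the largest log2 fold change among the sums of the 9 genes. Its sum was 69.2 and 66.8 CPM in KL and 80.5 and 84.8 CPM in KLG4m/m, without overlap. The peak at its first start held 21.3 and 22.5 CPM in KL and 27.3 and 29.4 CPM in KLG4m/m, and the peak at the next start held 21.6 and 17.9 against 24.7 and 28.5 CPM. The most internal start-site peak did not follow, with 12.1 and 12.1 CPM in KL and 14.2 and 9.60 CPM in KLG4m/m. The call of the Zap70 sum was lost when any of the 4 libraries was left out, at log2 fold changes of 0.24 to 0.32, and in DESeq2.

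Lck encodes the kinase that starts receptor signalling, and uses a proximal promoter mainly in thymocytes and a distal one in mature T cells. The peak at the downstream start held 16.4 and 22.8 CPM in KL and 17.98 and 21.1 CPM in KLG4m/m. The peak at the upstream start held 12.9 and 15.6 CPM in KL and 19.1 and 18.3 CPM in KLG4m/m. The groups overlapped at the former and not at the latter, where the log2 fold change was 0.39 with a standard error of 0.20.

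Themis, a regulator of receptor signalling in thymocytes, was covered more weakly. Its start-site peak held 45 and 50 reads in KL and 69 and 53 reads in KLG4m/m, a log2 fold change of 0.42 with a standard error of 0.20. Another promoter peak, 1.665 kb from a start, did not follow, with a log2 fold change of -0.13. It held 8.34 and 10.7 CPM in KL and 6.09 and 11.5 CPM in KLG4m/m, with overlapping groups. Of its 5 peaks, 3 lay 74.0 to 152 kb upstream, inside introns of the neighbouring gene Ptprk, a receptor phosphatase, and had 7 to 20 reads per library. With such counts the farthest of them, at 5.18 and 4.32 CPM in KL and 2.03 and 3.72 CPM in KLG4m/m, had a standard error of 0.42 on the log2 scale.

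Of the receptors, Cd28, the co-stimulatory receptor of naive T cells, was the only one of the 9 genes with a sum below KL, at 30.9 and 28.2 CPM in KL and 27.3 and 29.6 CPM in KLG4m/m. Its start-site peak held 30 and 44 reads in KL and 18 and 39 reads in KLG4m/m, a wide spread within each group. Il7r, the receptor chain for the survival cytokine IL-7, had no peak within 1 kb of a start. Its strongest peak, 1.11 kb inside the gene, held 17.5 and 14.98 CPM in KL and 22.6 and 16.4 CPM in KLG4m/m, and KLG4m/m replicate 4 lay between the KL libraries. A weaker peak 4.91 kb upstream held 4.60 and 3.46 CPM in KL and 6.67 and 5.26 CPM in KLG4m/m, from 12 to 23 reads per library. Its log2 fold change was 0.57 with a standard error of 0.36, not past the threshold. There KLG4m/m lay above KL without overlap, as it did at 27.5% of all peaks. Another peak assigned to Il7r, 66.4 kb upstream, lay in an exon of Spef2, a sperm flagellum gene, with 10.1 and 12.4 CPM in KL and 12.2 and 12.4 CPM in KLG4m/m.

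Peak by peak, 30 of the 42 log2 fold changes were above 0 and 12 below, with a median of 0.16 beside 0.01 over all peaks. Standard errors ran from 0.13 to 0.44 with a median of 0.23, and 20 of the 42 changes were smaller than their own standard error. KLG4m/m lay above KL without overlap at 14 peaks, beside 27.5% of all peaks, and below at 2, beside 26.6% of all peaks. Past the threshold were 1 higher and 1 lower peak, both of Tcf7, beside 3.1% and 5.52% of all peaks, and DESeq2 called neither.

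**Figure D3:**
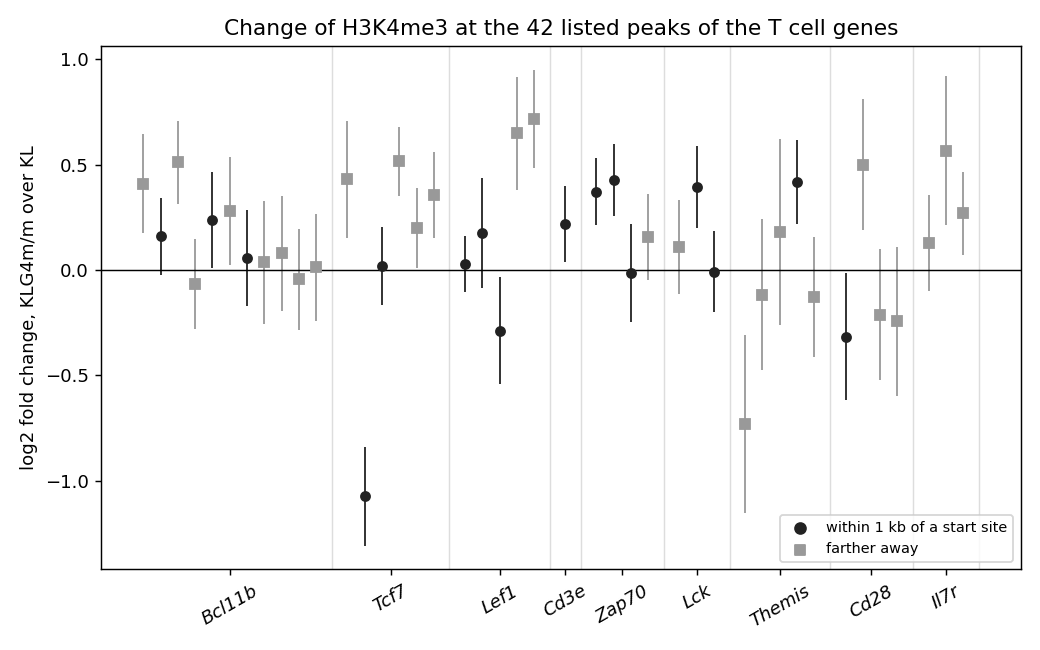
Log2 fold change of KLG4m/m over KL (y axis) with its standard error for each of the 42 peaks, in order along each gene; circles lie within 1 kb of a start site and squares farther away. The 30 peaks above 0 reached 0.72, and the Tcf7 start-site peak stood lowest at -1.07.

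The nearest listed peaks of other genes were taken within 100 kb of each gene's strongest start-site peak, or for Il7r of its peak nearest to a start. Of these 11 peaks, 0 were past the threshold in edgeR, 3 had an unadjusted p under 0.05, and DESeq2 called 0. Beside Cd3e, a peak of Cd3d, which encodes another CD3 chain, had a log2 fold change of 0.37 with a standard error of 0.16, and on the other side a promoter peak of Mpzl2 had -0.09 with 0.18. Beside Tcf7, the promoter peak of Skp1, a ubiquitin ligase subunit used by every cell, held 74.8 and 76.3 CPM in KL and 78.6 and 96.6 CPM in KLG4m/m, more in every library than any Tcf7 peak.

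Other T cell genes carried the mark too, at start-site levels that differed by list. The median of the strongest start-site peak was 42.3 CPM for transcription factors, 28.1 CPM for receptor signalling genes and also for homing and cytokine receptors, 19.1 CPM for receptor and co-receptor genes and 11.7 CPM for effector and checkpoint genes, beside 20.1 CPM for the 9 genes. Over the 5 further T cell lists, 66 of 69 genes had listed peaks, of which 18 were higher and 2 lower past the threshold over all genes, with a median log2 fold change of 0.16. Over the whole table, 5.38% of genes were higher and 9.63% lower, and the counts of the lists that follow are set beside these shares. Among receptor, co-receptor and co-stimulation genes, 1 of 13 was higher, 0 lower and the median was 0.15. That gene was Cd3d, at 45.0 and 37.1 CPM in KL and 54.1 and 58.6 CPM in KLG4m/m, while Cd3g held 27.7 and 25.9 against 27.3 and 26.5 CPM. Cd4 (log2 fold change 0.30), Cd8a (0.50) and the zeta chain gene Cd247 (0.14) did not pass. The adjusted p of Cd3d was 0.0059 (edgeR, Benjamini-Hochberg).

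Among receptor signalling genes, 8 of 15 were higher and 1 lower, with a median of 0.31. Ubash3a, a negative regulator of the receptor, had the largest rise with 0.72, followed by the kinase gene Txk with 0.48 and the adaptor gene Sla2 with 0.44, and Fyn, a kinase used in many tissues, fell by 0.26 on the log2 scale. Among transcription factors, 3 of 14 were higher, namely Runx3 (0.48), Satb1 (0.33) and Id2 (0.28), 1 was lower, Tcf12 (-0.999), and the median was 0.14. Among homing and cytokine receptors, 6 of 13 were higher and 0 lower with a median of 0.24, among them the cytokine receptor gene Il2rb with 0.44 and the homing receptor gene Ccr7 with 0.39. Of 11 effector and checkpoint genes, 0 passed in either direction in edgeR or DESeq2, 1 had an unadjusted p under 0.05 in edgeR, and the median was 0.01. Their sum was 204 and 211 CPM in KL and 208 and 206 CPM in KLG4m/m, with overlapping groups.

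**Figure D4:**
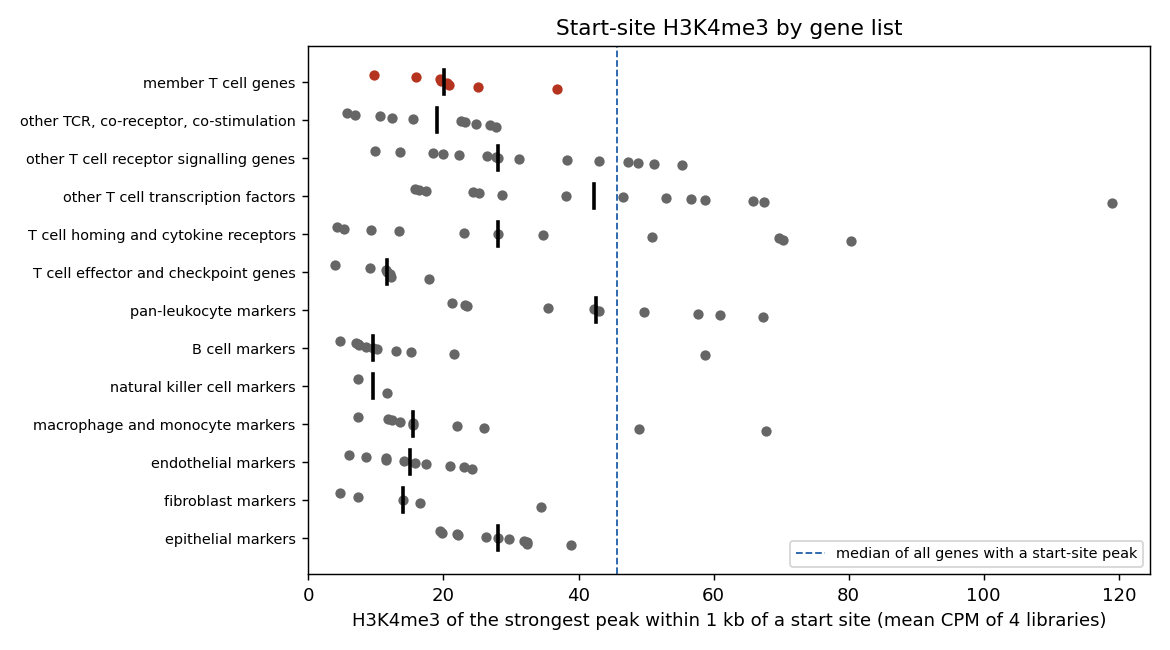
H3K4me3 of the strongest peak within 1 kb of a start site (x axis, mean CPM of the 4 libraries) for each gene with such a peak, by gene list, with a bar at the median of the list and a dashed line at the median of all genes. The T cell genes in red had a median of 20.1 CPM and epithelial markers 28.0 CPM, both under the 45.7 CPM of all genes.

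The gate was checked against marker genes of the cells it should hold and leave out, and markers of both carried the mark. Ptprc, which encodes CD45, held 54.5 and 59.6 CPM in KL and 70.0 and 62.9 CPM in KLG4m/m over 2 peaks. Epcam, the gene of the gating antigen, held 52.5 and 57.6 CPM in KL and 33.4 and 29.0 CPM in KLG4m/m over 2 peaks. By start-site peaks, 10 pan-leukocyte genes had 21.3 to 67.3 CPM with a median of 42.7, the T cell genes 9.65 to 36.8 CPM with a median of 20.1 over 8 genes, and 11 epithelial markers 19.5 to 38.8 CPM with a median of 28.0. Krt8 held 23.5 to 31.96 CPM over the libraries, Krt18 58.2 to 66.3 and Nkx2-1 34.3 to 40.7 CPM. The endothelial gene Pecam1, which encodes CD31, held 62.3 and 71.7 CPM in KL and 70.9 and 81.7 CPM in KLG4m/m, and the fibroblast gene Col1a1 14.1 to 20.05 CPM. Of the 86 markers in the 7 cell type lists, 19 had no listed peak, among them the surfactant gene Sftpc, the B cell gene Cd79a, the macrophage genes C1qa and C1qb and the fibroblast genes Col1a2 and Col3a1.

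The sums of the pan-leukocyte, B cell and macrophage lists lay higher in KLG4m/m, as did that of the 9 T cell genes, the sum of the epithelial list lay lower, and that of the natural killer cell list overlapped between the groups. Summed over 11 pan-leukocyte genes, H3K4me3 was 827 in both KL libraries and 974 and 973 CPM in KLG4m/m, with 5 genes higher, 0 lower and a median log2 fold change of 0.22. Arhgdib (0.50), Was (0.47) and Rac2 (0.44) rose most, and Ptprc, at 0.22, did not pass (adjusted p = 0.16, edgeR, Benjamini-Hochberg). B cell markers summed to 248 and 225 CPM in KL and 341 and 334 CPM in KLG4m/m, with 7 of 12 higher and a median of 0.60, among them Bank1 (1.34) and Blk (0.94). Macrophage and monocyte markers summed to 544 and 548 CPM in KL and 624 and 631 CPM in KLG4m/m, with 3 of 12 higher, Itgam (0.56), Adgre1 (0.46) and Spi1 (0.38), and 1 lower, Lyz2 (-0.61), which alveolar epithelium also uses; Csf1r (0.28) and Cd68 (0.14) did not pass.

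Epithelial markers summed to 602 and 587 CPM in KL and 507 and 530 CPM in KLG4m/m, with 4 of 13 lower, 0 higher and a median of -0.13. The lowest were Sftpd (-0.998), Epcam (-0.82) and Sftpb (-0.65), with an adjusted p of 1.6e-06 for Epcam (edgeR, Benjamini-Hochberg). Natural killer cell markers summed to 167 and 139 CPM in KL and 154 and 146 CPM in KLG4m/m, with 0 of 4 past the threshold in edgeR or DESeq2, 0 at an unadjusted p under 0.05 and a median of 0.17. Endothelial markers had 1 of 10 higher, Erg (0.38), and 1 lower, Tek (-0.55), with a median of -0.21, and fibroblast markers 1 of 5 higher, Pdgfrb (1.29), with a median of 0.15. Over all genes the median was 0.00.

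Set against the pan-leukocyte sum of the same library, the sum over the 9 T cell genes was 0.627 and 0.661 in KL and 0.595 and 0.624 in KLG4m/m. On that scale it was lower in KLG4m/m without overlap, though KL replicate 1 and KLG4m/m replicate 4 were close together. Against the macrophage and monocyte sum it was 0.952 and 0.996 in KL and 0.930 and 0.963 in KLG4m/m, with overlapping groups. Against the B cell sum it was 2.09 and 2.43 in KL and 1.70 and 1.82 in KLG4m/m, lower without overlap. Against the T cell effector and checkpoint sum it was 2.54 and 2.59 in KL and 2.79 and 2.94 in KLG4m/m, and against the epithelial sum 0.861 and 0.930 in KL and 1.14 and 1.15 in KLG4m/m, both higher without overlap. The part of the number of leukocytes in the sorted cells in these values was not tested.

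**Figure D5:**
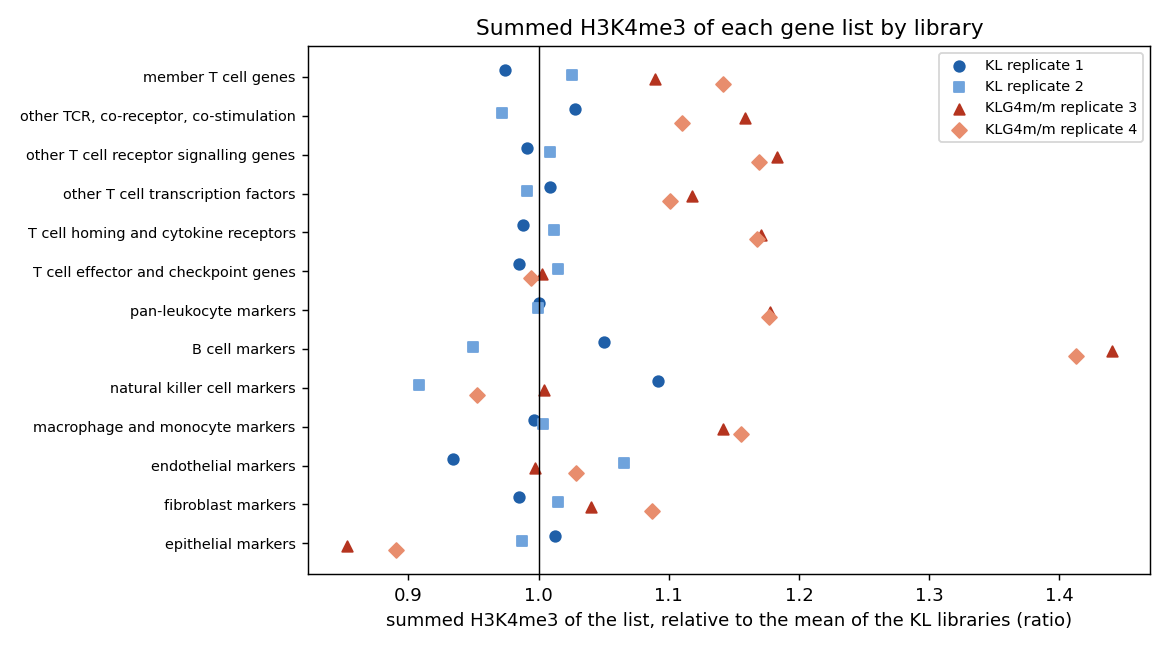
H3K4me3 summed over each gene list (x axis, ratio to the mean of the 2 KL libraries), with 1 point per library. The 9 T cell genes lay above KL in KLG4m/m, as did the pan-leukocyte list at 974 and 973 CPM against 827 CPM, and the epithelial list lay below at 507 and 530 CPM.

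By the distance between log2 CPM values centred on their means over the 4 libraries, the genes of the other lists with a pattern most like the sum of the 9 were Cd68 (distance 0.05), a lysosomal protein gene of macrophages, Ptpn22 (0.08), a phosphatase of lymphocytes, and Vav1 (0.09), an exchange factor of blood cells. With 4 libraries this is a description of their order. Vav1 was the one of the 3 that passed the threshold, with 164 and 160 CPM in KL and 180 and 191 CPM in KLG4m/m. Next by distance came Ikzf1 (0.10) of the T cell transcription factors and Vwf (0.10) of the endothelial markers. Farther on was Cldn7 (0.13) of the epithelial markers, so the likeness was not particular to leukocyte genes.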

How the data were processed

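H3K4me3 was measured in 4 libraries, which were grouped by their labels. The authors trimmed the reads with Trim Galore 0.6.10, mapped them with BWA 0.7.15, removed reads of mapping quality under 30 and duplicates (Picard 2.17.3), and called peaks with MACS2 2.2.7.1; HOMER 4.11.1 is named for annotation. The table deposited by the authors holds whole read counts per peak, which were used, and a signed distance to a start site. Its 4 CPM columns and the columns of the authors' own comparison (fold change, F, p and FDR) were not used. H3K27ac was not analysed here.

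Counts per peak and, summed over the peaks of a gene, per gene were fitted with edgeR 4.0.16 (R 4.3.3, quasi-likelihood test, TMM scaling, no covariate, no filter), and p-values were adjusted by Benjamini-Hochberg over all 35486 peaks or 20871 genes, with a threshold of 0.05. Scaling to reads in peaks hides any change common to all peaks. At 7 to 128 reads per library, counting error is a large part of the spread. The assignment of peaks to genes was taken from the table and reaches far beyond the 2.5 kb that the methods name, and the peak caller's input (single or pooled libraries) is not given in the sources used here. Symbols were matched to the table, 1 through an older name (Fyb as Fyb1).

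The genes and lists were chosen with earlier results of these data known. Named in the text were all 9 T cell genes with their main peaks, up to 3 genes in each direction from every other list by size of change among those past the threshold, defining marker genes, the nearest peaks of other genes within 100 kb, and the 3 genes of most similar pattern. Some genes that came next in pattern were named too. Some items that this rule or the design would name are not reported here. Alternatives were DESeq2 1.42.0, RLE factors, total reads, limma 3.58.1 on log2(CPM + 1) with and without quantile scaling or a trend, a filter on low counts, the nearest peak only, an added 1.5-fold minimum, and leaving out each library.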

Additional observations from a re-analysis of the deposited data

How the results depend on the processing

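Over all genes or peaks, calls changed more with the test and the libraries than with the scaling. DESeq2 gave 33 higher and 244 lower peaks and 119 higher and 336 lower genes, where edgeR gave 1099, 1960, 1122 and 2010. limma on log2(CPM + 1) gave 0 higher and 0 lower peaks (3016 and 4310 at an unadjusted p under 0.05) and 39 higher and 84 lower genes, and with quantile scaling 0 of each (peaks 3442 and 3751, genes 2219 and 2482 unadjusted). With a trend in its prior spread, chosen after seeing the data, limma gave 1031 and 1868 peaks and 1066 and 1969 genes. An added 1.5-fold minimum left 712 higher peaks, 378 higher genes and 990 lower genes, and the nearest peak only left 707 higher genes. Leaving out 1 library gave 0 to 702 higher and 0 to 1459 lower peaks, and 0 to 649 higher and 0 to 1305 lower genes, with 0 in each case without KLG4m/m replicate 3 or 4 (the lone library was assumed to vary like the others).

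Among the T cell genes, the 1 higher peak became 0 in DESeq2, with total reads, in all 3 limma fits and with the 1.5-fold minimum, and 0 to 2 when 1 library was left out, the 2 being without KL replicate 1, where a Cd28 peak joined. The 1 lower peak became 0 in DESeq2 and in limma without a trend, with or without quantile scaling, and 0 to 1 without 1 library. The 1 higher gene, Zap70, became 0 in DESeq2, in limma without a trend, with the 1.5-fold minimum and with the nearest peak only, and 0 to 0 without 1 library. With the nearest peak only, 1 gene was lower, Tcf7. Of the log2 fold changes of the single T cell genes and peaks, 536 values under the alternatives moved by less than the spread between libraries and 34 by more, and those past the threshold kept their sign. The start-site level kept its value of 16.6 CPM with total reads, while its median percentile was 55.1 among all peaks in place of 26.7 among peaks within 1 kb. No paired analysis was possible because the groups share no replicate number.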
